A study of Homo sapiens with 12 samples.

Results

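The nucleolar ribosome assembly genes are 50 genes that encode RNA polymerase I subunits and factors, proteins of small nucleolar ribonucleoproteins (snoRNPs) and pre-ribosome processing factors. They were taken as the Ensembl identifiers that map to 50 listed symbols, and all 50 were found among the 28747 identifiers of the count table. RNA-seq was performed in DU145 cells, an established human prostate cancer line that grows without androgen. Control cells (shCtrl) and cells with a stable knockdown (shSigma in the labels) were each sequenced from adherent culture and from tumor spheres. There were 3 libraries per group and 12 in all. No compound was added in any group. Stable lines were made with lentiviral hairpin particles and puromycin selection. The methods name 1 hairpin clone, while the paper's figures show more than 1 hairpin. Which the sequenced cells carried is not stated, and the shSigma libraries may all come from 1 line. Adherent cells grew in medium with serum, while spheres grew on a non-adhesive coating in serum-free medium with FGF2, EGF, insulin and B-27 supplement. Culture form, serum and growth factors therefore differ together between adherent cells and spheres and cannot be told apart.

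Ribosomes are built in the nucleolus. RNA polymerase I transcribes ribosomal DNA into a long precursor, snoRNPs guide its chemical modification, and the small subunit processome and the large subunit assembly factors cut, fold and export the precursors of both subunits. Growing and dividing cancer cells make many ribosomes, and many of these genes are known targets of the transcription factor MYC.

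The libraries held 16472722 to 26957777 counts. The epithelial markers KRT8 and KRT18 were present in every library, whereas KLK3, a marker of androgen-responsive prostate cells, had at most 2 counts. The 5 epithelial markers summed to 878 to 964 CPM in adherent shCtrl, 1141 to 1453 in adherent shSigma, 2285 to 2349 in sphere shCtrl and 897 to 954 in sphere shSigma libraries, and the part of this shift in the results below was not tested. The 5 markers did not move together. From shCtrl to shSigma in adherent cells the means of the keratins KRT8, KRT18 and KRT19 went from 234, 321 and 92.7 to 413, 502 and 359 CPM, while those of the adhesion proteins EPCAM and CDH1 went from 235 and 26.8 to 30.9 and 12 CPM. In spheres EPCAM and CDH1 went from 613 and 727 to 61.9 and 27.8 CPM. The 5 leukocyte and 4 endothelial markers stayed at or under 2.1 and 2.87 CPM in sum. The 6 fibroblast markers summed to 4.92 to 9.86 CPM in adherent shCtrl, 3.57 to 5.86 in adherent shSigma, 20.6 to 26.6 in sphere shCtrl and 10.3 to 14.8 in sphere shSigma libraries, mostly from COL1A1, and LUM was at 0. Replicates in adherent culture were not alike along the GC content of transcripts. Across 14060 genes, the deviation of a library from its group mean had a correlation with GC content of -0.66, 0 and 0.69 in adherent shCtrl replicates 1 to 3 and of 0.41, 0.57 and -0.66 in adherent shSigma replicates 1 to 3. In the sphere libraries this correlation lay between -0.37 and 0.27, so the comparisons are also given with a correction for GC content. As these are bulk libraries, fewer cells that make much of a transcript and less transcript per cell cannot be told apart.

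Levels between genes were compared per kilobase of the canonical transcript. NPM1 (nucleophosmin, a histone and ribosome chaperone) led with a mean of 580 CPM per kilobase over the groups, followed by NCL (nucleolin, which binds precursor rRNA) with 202. NHP2, NOP56 and NOLC1, all snoRNP proteins, came next with 99.8, 96.5 and 95.4 CPM per kilobase, but their order changed with the group. NHP2 had 116 ± 5.55 CPM per kilobase in sphere shCtrl cells against 81.1 ± 2.84 for NOLC1, and in adherent shCtrl cells NOLC1 was above it with 113 ± 5.81 against 92.8 ± 10.8. The lowest well-counted members were GRWD1 and NOL9 with 5.75 and 5.69 CPM per kilobase. Among the RNA polymerase I genes, the shared subunit gene POLR1D had 92.3 CPM per kilobase, against 6.01 for POLR1A and 6.69 for POLR1B, which encode the catalytic subunits. This gap comes from their canonical transcript lengths of 693, 12480 and 7527 bases. Without division by length, their means in adherent shCtrl cells were 68.8, 81.7 and 57.6 CPM. Whether the canonical transcripts are the ones expressed here was not tested. Some members could not be read. FBL, the methyltransferase of box C/D snoRNPs, is listed at 0 in every library, as is its neighbour PSMC4, a proteasome subunit gene that every cell uses. RRN3, an initiation factor of RNA polymerase I, had at most 3 counts in any library. Neither tells about expression, the cause was not tested, and both failed the filter on low counts, which left 48 members tested in every comparison. NOP2, an rRNA methyltransferase, had 0.871 to 1.82 CPM and overlaps another gene on its strand, and PPAN had 2.00 to 6.96 CPM and overlaps the readthrough gene PPAN-P2RY11. The introns of 8 members hold 26 snoRNA genes, 18 members overlap an exon of a gene on the other strand, and 13 have named pseudogenes, of which NPM1 has 49. Counts of these genes are less certain, since neither strand use nor the handling of multiply aligned reads is given in the sources used here.

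Promoter sequences, each of 250 bases before and 50 bases after an annotated start, were found for 42 of the 50 members, some with several starts (54 promoters in all, RefSeq, GRCh38.p14). The E-box CACGTG, a palindrome bound by MYC with MAX and by related factors, was in 18 of the 54 promoters (33.3%), against 7.26% of 35116 promoters in the table and 9.15% of promoters of genes with a mean of at least 10 counts. By role it was in 7 of 12 small subunit genes with a promoter and in 0 of 6 RNA polymerase I genes. The core of ETS sites, CCGGAAG or CTTCCGG on the other strand, was in 17 promoters (31.5%), against 10.3% of all and 16.2% of promoters of counted genes. Here the roles were the other way around among the members, with 0 of 12 small subunit genes, 8 of 12 large subunit genes and 3 of 6 RNA polymerase I genes. In other genes of these roles, listed further below, the ETS core was in 19 of 35 small subunit, 18 of 35 large subunit and 6 of 12 RNA polymerase I genes. Its absence from small subunit genes therefore holds for the members only. The E-box was in 12, 10 and 1 of these other genes. The CCAAT box (CCAAT or ATTGG), a common promoter element, was in 38.9% of member promoters and 34.6% of all. A match is a description of letters and not of binding. Windows of 30 bases are shown for some of the called members whose values by library are given below. Of the others, BYSL, DDX21, LYAR, MYBBP1A, PES1 and RRP9 hold an E-box, and DDX21, POLR1C and RRP9 an ETS core. Windows are read 5′ to 3′ on the gene's strand, first for the E-box and then for the ETS core, with the motif in capitals.
MRTO4 (chr1:19251807-19251836, plus strand, exon): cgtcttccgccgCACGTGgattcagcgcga
UTP20 (chr12:101280083-101280112, plus strand, motif before the gene's annotated start): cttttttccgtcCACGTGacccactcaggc
WDR43 (chr2:28894658-28894687, plus strand, exon): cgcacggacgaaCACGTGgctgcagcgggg
GNL3 (chr3:52686026-52686055, plus strand, exon): ggcttcagttcaCACGTGgcgccagcggag
NOL6 (chr9:33473894-33473923, minus strand, exon): ggcatttccgccCACGTGggaagctatgag
NOL9 (chr1:6554612-6554641, minus strand, motif before the gene's annotated start): cctcctagtgtgCTTCCGGaggttgccggc
WDR74 (chr11:62839588-62839617, minus strand, exon): gcacacgctgcgCCGGAAGtgtgaactgtc
POLR1B (chr2:112541898-112541927, plus strand, motif across the gene's annotated start): caggcctccagtCCGGAAGatgcgacgagg
Of the 17 tested members with an E-box, 10 were lower after knockdown in adherent cells, and of the 23 with a promoter but no E-box 12 were. For the ETS core these counts were 9 of 13 and 13 of 27. MRTO4 and NOL6, whose E-box windows are printed above, moved in opposite directions.

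The first question was how the shSigma knockdown changed these genes in adherent cells. Of the 48 tested members, 24 fell and 2 rose at an adjusted p under 0.05 (edgeR's quasi-likelihood test, Benjamini-Hochberg adjustment over 13764 genes), and 43 had a log2 fold change under 0. Among all genes tested, 27.7% fell and 22.3% rose, against 50% and 4.17% of the members. The median log2 fold change of the members was -0.35, and that of all genes was -0.01. The shSigma libraries all lay under the shCtrl libraries for 24 members and all above them for 2, where 27.8% and 30.1% of all genes were separated in these directions. The changes were moderate in size. The lowest log2 fold change, that of MRTO4, was -0.9987, and by edgeR 0 members passed an absolute log2 fold change of 1, also at an unadjusted p and by DESeq2, where 13.7% of all genes did so at an adjusted p under 0.05.

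In tumor spheres the members did not move as one. After knockdown 4 fell and 14 rose, where 30.9% of 13774 genes tested fell and 30.2% rose (61.1% in either direction), and the median of the members was 0.03 against 0.00 for all genes. The 14 that rose are therefore a share (29.2%) near that of all genes, and the 4 that fell (8.33%) are a smaller one. The shSigma libraries lay under the shCtrl libraries for 8 members and above them for 15, against 33.3% and 33.5% of all genes. In both cultures GNL3, NPM1 and UTP15 fell and NOL6 and RRP1B rose, while NOLC1, NOP58 and POLR1B fell in adherent cells and rose in spheres. Of the others, 18 fell in adherent cells with no call in spheres, and 9 rose in spheres with no call in adherent cells. RRP9 fell in spheres with no call in adherent cells, and 12 were called in neither culture. The shares of all genes with each of these patterns across the cultures were not counted, so these numbers are a description only. As in adherent cells, 0 members passed an absolute log2 fold change of 1 by edgeR, at an unadjusted p or by DESeq2, against 13.1% of all genes at an adjusted p under 0.05.

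**Figure D1:**
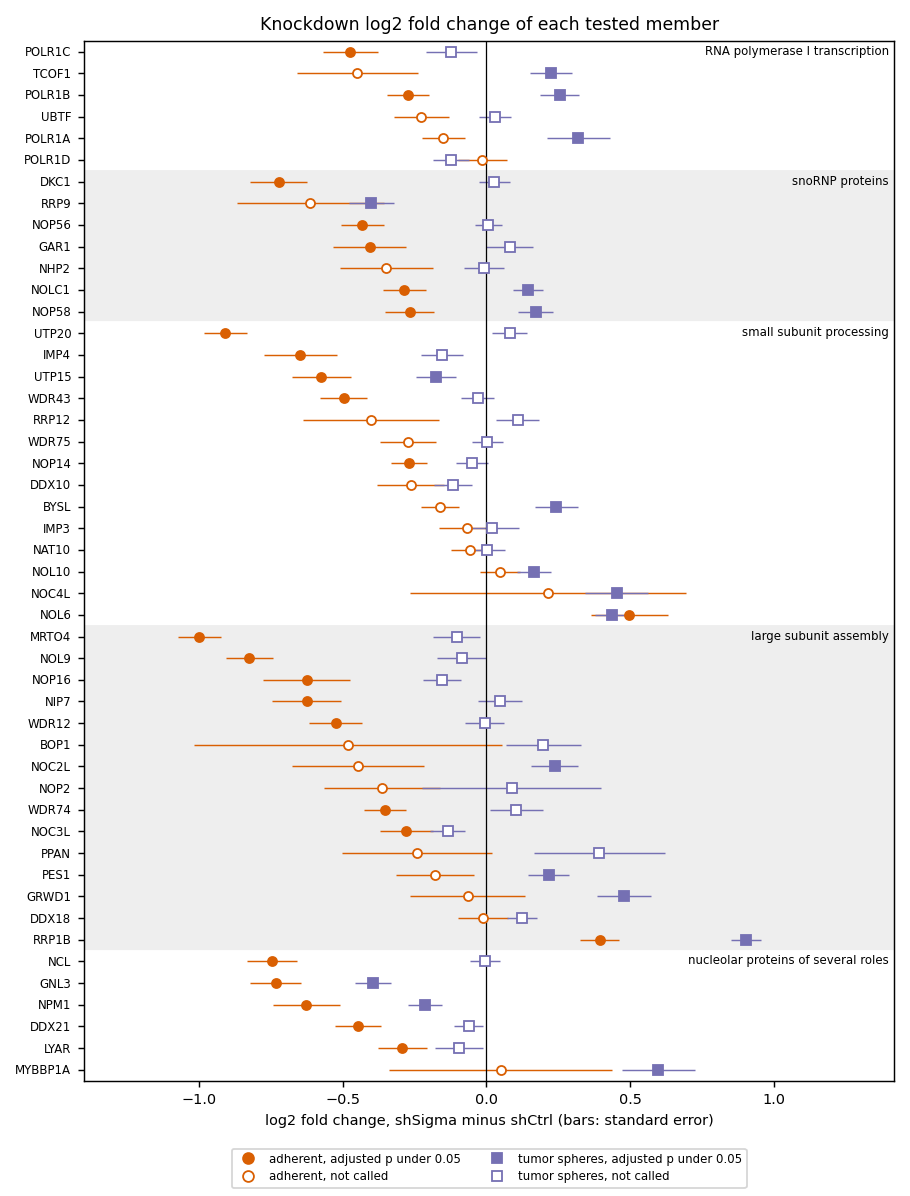
Log2 fold change (x axis, shSigma minus shCtrl, with standard error) of each of the 48 tested members in adherent cells (circles) and tumor spheres (squares), in bands by role, filled where the adjusted p was under 0.05. Most circles lie left of 0, down to MRTO4, whereas the squares lie on both sides, from -0.40 (RRP9) to 0.90 (RRP1B).

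Some calls depended on single libraries. With any 1 adherent library left out, 16 of the 24 members that fell and both that rose were still called. The calls of GAR1, LYAR, NOC3L, NOLC1, NOP14, NOP58, POLR1B and WDR74 were lost in turn without adherent shSigma replicate 1, adherent shSigma replicate 2 and adherent shCtrl replicate 2, and all of these but WDR74 also without adherent shCtrl replicate 1. In spheres, 2 of the 4 lower calls (GNL3 and RRP9) and 6 of the 14 higher calls held with any 1 library left out. Without sphere shSigma replicate 2 the calls were 2 lower and 9 higher, and without sphere shSigma replicate 3 they were 3 lower and 9 higher.

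RNA polymerase I genes were 6 tested members, of which 2 fell in adherent cells and the other 4 were not called. POLR1C (ENSG00000171453, chromosome 6, 43509702 to 43562419), a subunit shared with RNA polymerase III, had 45.2, 40.7 and 39.1 CPM in adherent shCtrl, 31.5, 28.5 and 34.2 in adherent shSigma, 37.7, 45.3 and 46.1 in sphere shCtrl and 43, 37.2 and 38.9 in sphere shSigma libraries. The adherent groups did not overlap and the sphere groups did. Its log2 fold change was -0.47 ± 0.10 (SE) in adherent cells (adjusted p = 0.00493, edgeR) and -0.12 ± 0.09 in spheres (adjusted p = 0.254, edgeR). POLR1B (ENSG00000125630, chromosome 2, 112541915 to 112579818), the second-largest subunit, had 58.8, 58.4 and 55.5 CPM in adherent shCtrl, 47.5, 48 and 54.1 in adherent shSigma, 44, 43 and 41.3 in sphere shCtrl and 50.3, 48.2 and 55 in sphere shSigma libraries. Knockdown libraries were low in one culture and high in the other, without overlap in either. It fell by 0.27 in adherent cells and rose by 0.25 in spheres on the log2 scale (adjusted p = 0.0161 and 0.00696, edgeR). POLR1A, the largest subunit, and TCOF1, the scaffold treacle that recruits the polymerase, also rose in spheres. POLR1A (ENSG00000068654, chromosome 2, 86020216 to 86106155) had 72.2, 52.3 and 63.9 CPM in sphere shCtrl and 72.8, 79.1 and 84 in sphere shSigma libraries, against 74, 80.9 and 90.1 and 74.9, 77.2 and 78.3 in the adherent ones. The sphere groups were just separated, and its log2 fold change there was 0.32 ± 0.11. TCOF1 (ENSG00000070814, chromosome 5, 150357629 to 150400308) had 95, 77 and 89.2 CPM in sphere shCtrl and 100, 101 and 105 in sphere shSigma libraries, with 76.8, 100 and 126 in adherent shCtrl and 83.6, 83.8 and 62.7 in adherent shSigma libraries. Within each adherent group it was highest in the library with the highest correlation with GC content and lowest in the one with the lowest. TCOF1 rose by 0.23 in spheres (adjusted p = 0.0206, edgeR) and was not called in adherent cells. With GC-content offsets its sphere value was 0.12 and no longer called (adjusted p = 0.0834, edgeR). UBTF (ENSG00000108312, chromosome 17, 44205033 to 44221626), which binds the ribosomal DNA promoter, had 122, 137 and 150 CPM in adherent shCtrl, 125, 127 and 112 in adherent shSigma, 144, 131 and 134 in sphere shCtrl and 144, 135 and 140 in sphere shSigma libraries. Its groups overlapped in both cultures.

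Of the 7 tested snoRNP proteins, 5 fell in adherent cells, with 2 not called, and in spheres 1 fell and 2 rose. DKC1 (ENSG00000130826, chromosome X, 154762742 to 154777689), dyskerin, the pseudouridine synthase of box H/ACA snoRNPs, had 234, 205 and 197 CPM in adherent shCtrl and 130, 121 and 152 in adherent shSigma libraries, and 127, 137 and 134 and 141, 129 and 137 in the sphere groups. Adherent control libraries were thus the only high ones. It fell by 0.72 on the log2 scale in adherent cells (SE 0.10, adjusted p = 0.000792, edgeR), and in spheres its log2 fold change was 0.03 ± 0.05. GAR1, its partner in the same particle, fell by 0.41, while NHP2 had a log2 fold change of -0.35 with overlapping groups (adjusted p = 0.118, edgeR). NOP58 and NOP56, core proteins of box C/D snoRNPs, fell by 0.27 and 0.43. NOP58 (ENSG00000055044, chromosome 2, 202265736 to 202303661) had 165, 145 and 142 CPM in adherent shCtrl, 131, 122 and 140 in adherent shSigma, 116, 135 and 130 in sphere shCtrl and 146, 141 and 143 in sphere shSigma libraries. The groups were separated in both cultures, in opposite directions. NOLC1 (ENSG00000166197, chromosome 10, 102152176 to 102163871), a chaperone of snoRNPs, did likewise, with 446, 412 and 406 CPM against 355, 336 and 395 in adherent cells and 301, 291 and 313 against 327, 334 and 343 in spheres. Its log2 fold changes were -0.28 ± 0.08 and 0.15 ± 0.05 (adjusted p = 0.0157 and 0.0276, edgeR). With 1 library left out, the adherent calls of NOP58 and NOLC1 each held in 2 of 6 fits. The sphere calls held in 2 of 6 fits for NOP58 and in 3 of 6 for NOLC1. RRP9 (ENSG00000114767, chromosome 3, 51933429 to 51941904), a protein of the U3 snoRNP, had 18.7, 23.5 and 29.8 CPM in adherent shCtrl, 18.6, 18.7 and 11.5 in adherent shSigma, 30.2, 34.2 and 30.4 in sphere shCtrl and 25.4, 23.1 and 23.5 in sphere shSigma libraries. Its sphere groups were clearly apart, and it fell there by 0.40 (adjusted p = 0.000928, edgeR). In adherent cells its log2 fold change was -0.61 ± 0.26 and not called.

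Small subunit processing was the role of 14 members. Of these, 5 fell and 1 rose in adherent cells, and 1 fell and 4 rose in spheres. UTP20 (ENSG00000120800, chromosome 12, 101280105 to 101386618), a large scaffold of the small subunit processome, had 133, 145 and 135 CPM in adherent shCtrl, 75.5, 69.6 and 85 in adherent shSigma, 80.2, 75 and 73.9 in sphere shCtrl and 77.2, 82.5 and 83.2 in sphere shSigma libraries. The adherent control stood far above the other 3 groups, which overlapped. It fell by 0.91 on the log2 scale in adherent cells (SE 0.07, adjusted p = 7.49e-05, edgeR) and had 0.08 ± 0.06 in spheres. IMP4, a partner of the U3 snoRNP, fell by 0.65, and WDR43 (ENSG00000163811, chromosome 2, 28894667 to 28948219), a processome protein that also acts in transcription of ribosomal DNA, by 0.50. WDR43 had 197, 178 and 176 CPM in adherent shCtrl, 133, 126 and 150 in adherent shSigma, 135, 141 and 148 in sphere shCtrl and 140, 132 and 144 in sphere shSigma libraries. UTP15 (ENSG00000164338, chromosome 5, 73565443 to 73583380), of the same early subcomplex, had 57.3, 52.5 and 48.7 CPM and 37.2, 33 and 41.3 CPM in the adherent groups, and 40.6, 43.6 and 45.1 and 37.1, 37.5 and 40.4 in the sphere groups. Its knockdown libraries were lower in both cultures, by little in spheres. It fell by 0.57 and by 0.17 (adjusted p = 0.00272 and 0.0484, edgeR), and the sphere call was lost in 11 of 14 alternatives, 5 of them with 1 library left out. NOP14 fell by 0.27 in adherent cells. In the other direction NOL6 (ENSG00000165271, chromosome 9, 33461353 to 33473930), a processome scaffold protein, had 69.6, 82.9 and 99.7 CPM in adherent shCtrl, 126, 132 and 112 in adherent shSigma, 129, 112 and 122 in sphere shCtrl and 168, 163 and 163 in sphere shSigma libraries. It was low in the adherent control only and highest in sphere shSigma libraries. NOL6 rose by 0.50 ± 0.13 and 0.44 ± 0.06 on the log2 scale (adjusted p = 0.0185 and 6.24e-05, edgeR), and its interaction with culture was -0.11 (adjusted p = 0.637, edgeR). NOC4L (ENSG00000184967, chromosome 12, 132144457 to 132152473), a partner of NOP14, rose in spheres by 0.45, with 11.2, 10 and 11.5 CPM in shCtrl and 17, 13.7 and 14.4 in shSigma libraries. With GC-content offsets this value was 0.15 and not called (adjusted p = 0.168, edgeR). In adherent cells it was too variable to compare, with 3.96, 6.3 and 11 CPM against 10.4, 10.5 and 4.49. BYSL (ENSG00000112578, chromosome 6, 41921499 to 41933046), needed late in 40S maturation, rose by 0.24 in spheres, from 41.7, 41.6 and 44.7 to 55.2, 49 and 47.7 CPM, and had 43, 44.6 and 45.5 and 41.9, 40.3 and 42.2 CPM in adherent cells. NOL10 rose by 0.17 in spheres. IMP3, WDR75, DDX10, NAT10 and RRP12 were called in neither culture, with log2 fold changes between -0.40 and 0.11.

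**Figure D2:**
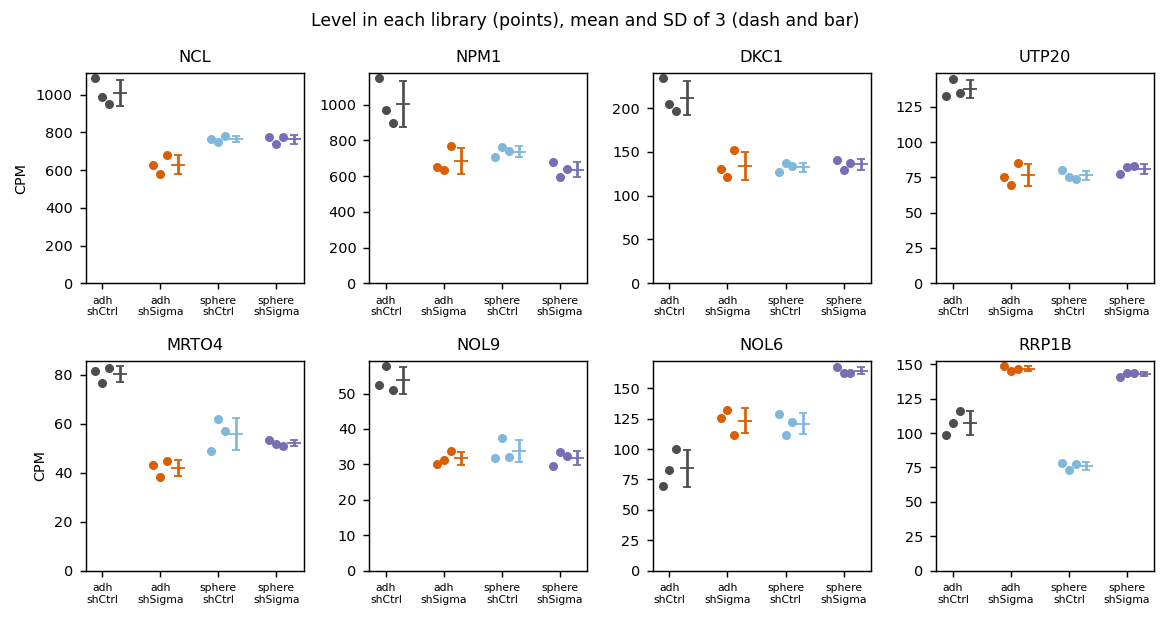
CPM (y axis, from 0) of 8 members in each of the 12 libraries, grouped on the x axis by culture and hairpin, with the mean and SD of 3 libraries beside the points. NCL, NPM1, DKC1, UTP20, MRTO4 and NOL9 were highest in all 3 adherent shCtrl libraries, while NOL6 and RRP1B were higher in shSigma than in shCtrl libraries of both cultures.

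Large subunit assembly factors were 15 tested members, of which 7 fell and 1 rose in adherent cells, and 4 rose in spheres with the other 11 not called. MRTO4 (ENSG00000053372, chromosome 1, 19251805 to 19260128), a placeholder for the ribosomal stalk protein P0, had 81.5, 76.6 and 82.8 CPM in adherent shCtrl, 43.1, 38.2 and 44.6 in adherent shSigma, 48.7, 61.9 and 57 in sphere shCtrl and 53.5, 51.9 and 51.1 in sphere shSigma libraries. The adherent groups were far apart, and the sphere groups overlapped. Its log2 fold change was -0.9987 in adherent cells (SE 0.07, adjusted p = 4.82e-05, edgeR) and in spheres it was -0.10 ± 0.08. NOL9 (ENSG00000162408), a kinase needed to process the spacer between the rRNAs, had 52.3, 57.9 and 50.9 CPM in adherent shCtrl and 30.1, 31.2 and 33.8 in adherent shSigma libraries, and 31.8, 37.3 and 32 and 29.6, 33.5 and 32.4 in the sphere groups. It fell by 0.83 in adherent cells, where NOP16 and NIP7 each fell by 0.63, WDR12 by 0.52 and NOC3L by 0.28. WDR12 forms the PeBoW complex with PES1 and BOP1. PES1 (ENSG00000100029, chromosome 22, 30576625 to 30607083) had 64.3, 67.7 and 83.7 CPM in adherent shCtrl and 67.9, 73.2 and 57.1 in adherent shSigma libraries, and 68, 64.9 and 77.3 and 83.9, 79.3 and 82.1 in the sphere groups. It rose in spheres by 0.22 and was not called in adherent cells. BOP1 was not called in either culture, and its adherent libraries ranged from 14.7 to 49 CPM in shCtrl and from 11.3 to 30.8 CPM in shSigma cells. WDR74 (ENSG00000133316, chromosome 11, 62832342 to 62841809), which acts with an AAA-type ATPase in 60S maturation, had 40.9, 44.5 and 47.4 CPM in adherent shCtrl, 36.4, 35.8 and 36.3 in adherent shSigma, 43.8, 48.3 and 43.9 in sphere shCtrl and 56.3, 46.6 and 43.4 in sphere shSigma libraries. It fell by 0.35 in adherent cells, and the sphere groups overlapped. DDX18, an RNA helicase with the largest mean CPM of this role, had 140 ± 11.7 and 145 ± 9.85 CPM in adherent shCtrl and shSigma cells and 112 ± 3.11 and 123 ± 3.68 CPM in spheres, with a log2 fold change of -0.01 ± 0.09 in adherent cells. Its sphere groups did not overlap, and its value there, 0.12, was not called (adjusted p = 0.0553, edgeR).

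RRP1B (ENSG00000160208, chromosome 21, 43659560 to 43696079), a nucleolar protein of large subunit biogenesis that also binds chromatin, stood apart from the other large subunit factors. It had 98.7, 107 and 116 CPM in adherent shCtrl, 149, 145 and 147 in adherent shSigma, 78.3, 72.9 and 77.5 in sphere shCtrl and 141, 144 and 144 in sphere shSigma libraries. All shSigma libraries were above all shCtrl libraries. RRP1B rose by 0.39 ± 0.07 in adherent cells and by 0.90 ± 0.05 in spheres (adjusted p = 0.00218 and 6.56e-08, edgeR), and the rise was larger in spheres by 0.45 (interaction, adjusted p = 0.00197, edgeR). Between the cultures, shSigma cells differed by -0.02 ± 0.05 on the log2 scale (adjusted p = 0.781, edgeR), whereas shCtrl cells were lower in spheres by 0.49 (adjusted p = 0.001, edgeR). GRWD1, a histone and ribosomal protein chaperone, rose by 0.48 in spheres, NOC2L by 0.24, and neither was called in adherent cells.

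Nucleolar proteins of several roles were 6 members, of which 5 fell in adherent cells, while in spheres 2 fell and 1 rose. NCL (ENSG00000115053, chromosome 2, 231453531 to 231483641) had 1089, 987 and 952 CPM in adherent shCtrl, 627, 580 and 683 in adherent shSigma, 764, 750 and 779 in sphere shCtrl and 778, 737 and 776 in sphere shSigma libraries. Adherent control libraries were the highest and adherent knockdown libraries the lowest, with both sphere groups between them. It fell by 0.75 on the log2 scale in adherent cells (SE 0.09, adjusted p = 0.000343, edgeR), and its log2 fold change in spheres was -0.00 ± 0.05. NPM1 (ENSG00000181163, chromosome 5, 171387116 to 171411810) had 1149, 973 and 898 CPM in adherent shCtrl, 651, 633 and 768 in adherent shSigma, 706, 763 and 743 in sphere shCtrl and 678, 593 and 641 in sphere shSigma libraries. Groups were separated in both cultures, widely in adherent cells and narrowly in spheres. NPM1 fell by 0.63 and by 0.21 (adjusted p = 0.00322 and 0.00916, edgeR), and the sphere call was lost without sphere shSigma replicate 2. GNL3 (ENSG00000163938, chromosome 3, 52681156 to 52694497), nucleostemin, a GTPase known from stem cells and cancer cells, had 252, 226 and 214 CPM in adherent shCtrl, 139, 136 and 161 in adherent shSigma, 189, 207 and 213 in sphere shCtrl and 160, 143 and 162 in sphere shSigma libraries. It fell by 0.73 and by 0.39 (adjusted p = 0.000443 and 0.000214, edgeR), and the difference between the cultures, 0.28, was not called (adjusted p = 0.107, edgeR). DDX21 (ENSG00000165732, chromosome 10, 68956135 to 68985068), an RNA helicase that links RNA polymerase I and II transcription to rRNA processing, had 547, 524 and 489 CPM in adherent shCtrl and 390, 368 and 440 in adherent shSigma libraries, and 317, 327 and 332 and 322, 298 and 318 in the sphere groups. It fell by 0.45 in adherent cells. LYAR (ENSG00000145220, chromosome 4, 4267701 to 4290154), a nucleolar zinc finger protein, fell by 0.29, from 105, 91.8 and 90.5 to 81.7, 76 and 87.7 CPM, and in spheres had 54.7, 68.2 and 60.8 and 62.1, 55.2 and 55.3 CPM. MYBBP1A (ENSG00000132382, chromosome 17, 4538897 to 4555386), a repressor of ribosomal DNA transcription, rose in spheres by 0.60, from 86.1, 58.2 and 82.7 to 121, 113 and 111 CPM. Its adherent libraries overlapped, with 48.1, 67.6 and 102 CPM in shCtrl and 91.3, 96.7 and 44.7 in shSigma cells.

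Whether the knockdown acted differently in the 2 cultures was tested in a single fit of the 12 libraries with an interaction term, given as the sphere minus the adherent log2 fold change. It was higher in spheres for 17 of the 48 members (35.4%), against 12.7% of 14175 genes tested (28.4% in either direction). It was lower for 0 members by edgeR, also at an unadjusted p under 0.05 and by DESeq2, against 15.6% of genes. An absolute value over 1 was reached by 0 members in each of these, against 8.54% of genes at an adjusted p under 0.05. The largest was UTP20 with 0.93 ± 0.11 (adjusted p = 2.56e-05, edgeR), followed by MRTO4 with 0.84 ± 0.12, DKC1 with 0.69 ± 0.12, NCL with 0.68 ± 0.10 and NOL9 with 0.68 ± 0.12. These 5 belong to 4 role groups. By role the interaction was called for 1 of 6 RNA polymerase I genes (POLR1B), 4 of 7 snoRNP proteins (DKC1, NOP56, NOP58 and NOLC1), 4 of 14 small subunit factors (UTP20, IMP4, WDR43 and BYSL), 6 of 15 large subunit factors (MRTO4, NOL9, NIP7, WDR12, WDR74 and RRP1B) and 2 of 6 nucleolar proteins of several roles (NCL and DDX21). The median over the members was 0.38. With any 1 of the 12 libraries left out, 13 of the 17 were still called, the others being DDX21, IMP4, NOP58 and WDR74. Leaving out adherent shCtrl replicate 1 or adherent shSigma replicate 3 raised the count to 26.

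Spheres were then compared with adherent cells within each hairpin line. In shCtrl cells 24 members were lower and 3 higher in spheres, where 26.3% of 13800 genes were lower and 27.4% higher (53.7% in either direction), and the median of the members was -0.23. UTP20 fell by 0.85, DDX21 by 0.68, DKC1 and NOL9 by 0.67 and LYAR by 0.64 on the log2 scale, and NOL6, IMP3 and NHP2 rose by 0.53, 0.41 and 0.32. With GC-content offsets NOL6 had 0.25 and was still called, while IMP3 with 0.19 and NHP2 with 0.06 were not (adjusted p = 0.213 and 0.371, edgeR). The groups did not overlap for 26 members lower and 5 higher in spheres, against 30.8% and 31.9% of genes, and by edgeR 0 members passed an absolute log2 fold change of 1, also unadjusted and by DESeq2, against 15.8% of genes. The 3 higher calls were 1 without adherent shCtrl replicate 2 and 6 without replicate 3. In shSigma cells the picture was not the same, with 7 members lower and 21 higher in spheres, where 25.2% of 13622 genes were lower and 21.9% higher (47.1% in either direction), and a median of 0.22. The groups did not overlap for 8 members lower and 23 higher, against 32.5% and 28.3% of genes. LYAR, POLR1D and DDX21 fell by 0.48, 0.34 and 0.33, while PPAN, GRWD1, NOP16 and NHP2 rose by 0.89, 0.68, 0.64 and 0.62. With GC-content offsets these 4 values were 0.42, 0.40, 0.63 and 0.48, and PPAN was no longer called (adjusted p = 0.144, edgeR). BOP1 was the 1 member past an absolute log2 fold change of 1, with 1.20 ± 0.39 (adjusted p = 0.0499, edgeR), where 9.32% of genes were, and with GC-content offsets it had 0.47 (adjusted p = 0.0074, edgeR). The call of BOP1 was lost without adherent shSigma replicate 1 or any 1 of the sphere shSigma libraries. The 21 higher calls were 11 without sphere shSigma replicate 1 and 13 without replicate 2, and the 7 lower calls were 4 without adherent shSigma replicate 1 or sphere shSigma replicate 2. These comparisons share their adherent libraries with the knockdown comparison above, so their directions are not independent of it.

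The 4 groups were also set side by side. For 17 of the 48 members (35.4%) the adherent shCtrl libraries were above all 9 other libraries, as they were for 13.3% of 13391 genes tested in both cultures. The highest group mean was in adherent shCtrl cells for 24 members (50%), against 26.3% of genes. The members above all other libraries included NCL, NPM1, GNL3, DDX21 and LYAR of the nucleolar proteins, DKC1, NOP56, NOLC1 and GAR1 of the snoRNPs, UTP20, UTP15 and WDR43 of the small subunit, MRTO4, NOL9, NIP7 and WDR12 of the large subunit, and POLR1B. Among the other 3 groups, DKC1, NOL9, WDR12, UTP20, WDR43 and GAR1 had no call, whereas the other 11 were called for the knockdown in spheres or between the cultures of shSigma cells. The lowest mean was in adherent shSigma cells for 26 of the 48 members. The share of all genes with this order was not counted, so this number is a description only.

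**Figure D3:**
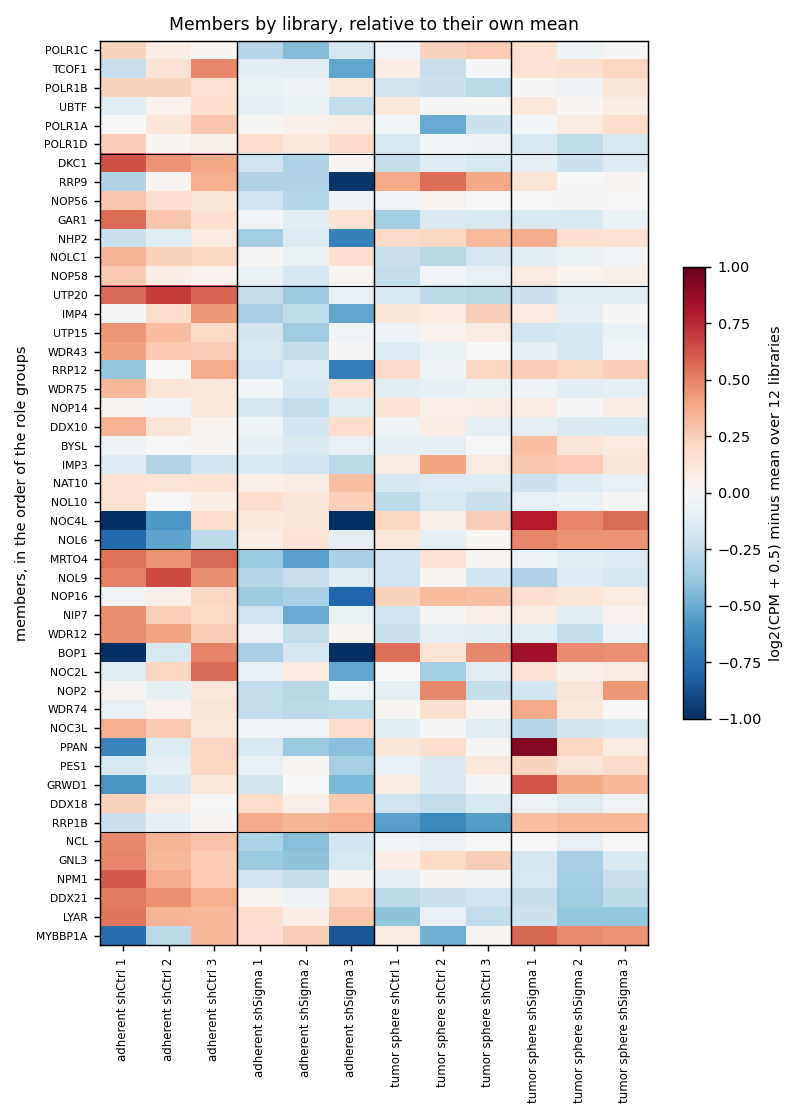
Each tested member (y axis, in the order of the role groups) in each of the 12 libraries (x axis), as log2(CPM + 0.5) minus the member's mean over the libraries, with colours saturated at -1 and 1. The adherent shCtrl group has the highest mean (red) for 24 members, and BOP1, NOC4L and MYBBP1A change colour within the adherent groups.

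The GC content of the members went along with their calls. Median GC content of the canonical transcript was 44.7% for the 24 members that fell in adherent cells, 56.9% for the 22 not called and 48.3% over all genes tested. BOP1, NOC4L and MYBBP1A, with a GC content of 65.57%, 64.18% and 60.60%, were the members with the widest spread for their level in both adherent groups. The fits were therefore repeated with a trend on GC content removed from each library, an alternative chosen after the data were seen. With it 35 members fell in adherent cells, 23 of the 24 without it among them, and 4 rose, including NOL6 and RRP1B. NOC3L lost its call. NHP2, PES1 and 10 others joined, among them RRP9 (log2 fold change -0.85, adjusted p = 7.89e-06 by edgeR), BOP1 (-0.84), TCOF1 (-0.62) and RRP12 (-0.56), and DDX18 and NOL10 rose by 0.14 and 0.18. The median stayed at -0.34, with -0.99 for MRTO4, -0.78 for UTP20 and -0.66 for NCL. Smaller changes shrank more, to -0.14 for POLR1B, -0.13 for NOP58, -0.16 for LYAR and -0.10 for NOC3L. In spheres 5 fell and 12 rose with this correction. NOC2L, NOC4L and TCOF1 lost their higher calls there and UTP15 its lower call, DDX18 was called higher, and NOP16 and BOP1 were called lower, BOP1 with -0.16 in place of 0.20. Between the cultures, 29 members were lower in shCtrl spheres, 20 of the 24 without the correction among them, and 1 was higher. In shSigma spheres 5 were lower, all among the 7 without it, and 25 higher, 18 of the 21 among them. The interaction was called for 35 members, with all 17 above among them.

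**Figure D4:**
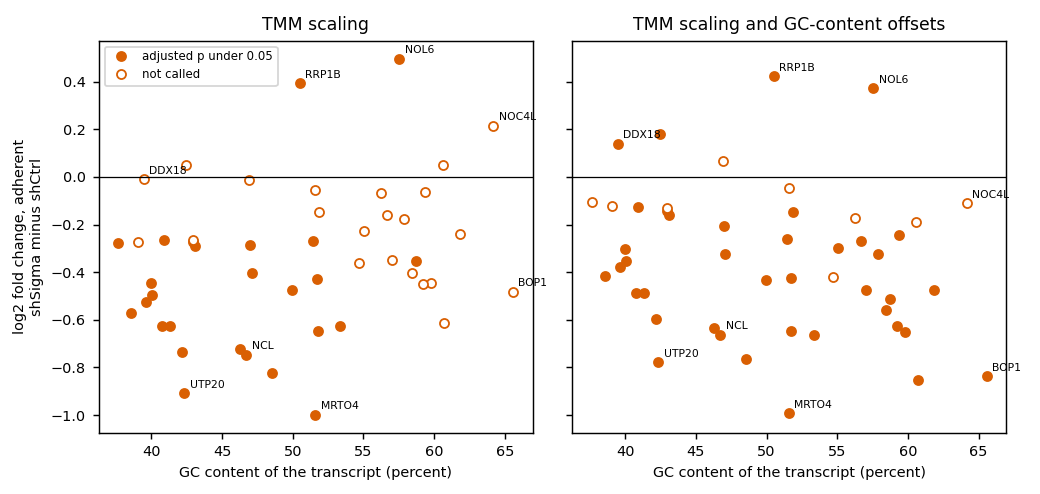
Log2 fold change after knockdown in adherent cells (y axis) against the GC content of the canonical transcript in percent (x axis) for the 48 tested members, without (left) and with (right) GC-content offsets, filled where the adjusted p was under 0.05. The open points on the left have a median GC content of 56.9%, and 35 filled points lie under 0 on the right.

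Some members lie in stretches of chromosome where the called genes mostly moved the same way. Of the 40 tested genes nearest to RRP1B, 21 were higher and 0 lower after knockdown in adherent cells by edgeR, with 0.45 as their median log2 fold change, and 26 were higher and 3 lower in spheres, with a median of 0.42. Around GNL3, 21 were lower and 1 higher in adherent cells (median -0.54) and 29 lower and 2 higher in spheres (median -0.52). RRP9 lies in the same stretch, with 35 of its 40 neighbours shared with GNL3. PPAN differed from its neighbours in spheres, of which 23 were lower and 4 higher with a median of -0.35, while its own log2 fold change was 0.39 and not called. Near UTP15 the lower calls outnumbered the higher ones by 20 to 4 in adherent cells and by 15 to 10 in spheres, with medians of -0.34 and -0.16. For NCL, MRTO4, UTP20 and NOL6, the medians of the neighbours in adherent cells were 0.17, -0.23, -0.19 and 0.04. Each was smaller in size than the gene's own log2 fold change. Near MRTO4 15 neighbours fell and 6 rose there, and near UTP20 16 fell and 4 rose. Near NCL 8 fell and 16 rose, and near NOL6 7 fell and 15 rose. In the same culture 20 neighbours of GAR1 fell and 6 rose, and for PPAN 19 fell and 2 rose. In spheres 18 neighbours of GAR1 fell and 8 rose. Of all genes tested, 27.7% fell and 22.3% rose in adherent cells, and 30.9% and 30.2% did so in spheres. What these neighbourhoods have in common was not tested.

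Other genes of the pathway were counted in the same fits. Values with GC-content offsets are given for the members only, so the fold changes of these other genes stand without that correction. They were listed by role, but with earlier results of these data known, so they are no blind check of the members. Of 99 tested genes in 4 such lists, 46 fell and 5 rose in adherent cells (46.5% and 5.05%, against 27.7% and 22.3% of all genes), with a median of -0.26. In spheres 28 fell and 26 rose (28.3% and 26.3%), shares near those of all genes (30.9% and 30.2%), with a median of 0.02. The interaction was higher for 24 and lower for 2 of them, NVL and C1D. Among 37 other small subunit factors, 18 fell and 2 rose in adherent cells. NGDN fell most there, from 24.7 ± 4.26 to 9.82 ± 0.8 CPM, and fell in spheres as well by 1.12, while PWP2, a processome protein encoded on chromosome 21, rose by 0.79 and 0.85. Of 35 other large subunit factors 16 fell and 3 rose. EBNA1BP2 went from 161 ± 15.3 to 73 ± 4.58 CPM in adherent cells and fell by 1.21, and in spheres it had 66.8 ± 4.78 and 63.9 ± 2.77 CPM, with an interaction of 1.08 (adjusted p = 1.3e-05, edgeR). BRIX1 fell in both cultures, by 1.08 and 0.74, and SBDS, which releases a block on subunit joining, rose in both, by 0.50 and 0.65. Of 14 genes of the RNA exosome, which trims rRNA precursors, 7 fell in adherent cells, led by EXOSC8 with -0.93, and 9 fell and 2 rose in spheres, with EXOSC7 at -0.90 and EXOSC5 at 0.63. Of 13 other RNA polymerase I genes, 5 fell in adherent cells, with POLR2K, a subunit shared by all 3 polymerases, at -0.58, and in spheres POLR2K fell by 0.93 while POLR2L, also shared, rose by 1.05.

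MYC itself had 72 ± 5.95 CPM in adherent shCtrl and 51.7 ± 4.14 in adherent shSigma cells, and 86.6 ± 8.43 and 116 ± 1.63 CPM in spheres (mean ± SD, n = 3). It fell by 0.54 in adherent cells and rose by 0.41 in spheres (adjusted p = 0.00217 and 0.000255, edgeR), with an interaction of 0.90 (adjusted p = 8.98e-05, edgeR). Of the 11 tested genes of the MYC network, 4 fell and 4 rose in adherent cells, and 1 fell and 8 rose in spheres. MAX, the partner of MYC, fell by 0.22 and 0.17, and MXD4, an antagonist, rose by 1.43 ± 0.42 and 0.76 ± 0.14 (SE). Adherent libraries of MXD4 varied widely, with 20, 31.5 and 50.4 CPM in shCtrl and 104, 123 and 57 CPM in shSigma cells. No values with GC-content offsets are given for MYC or the lists of this paragraph. Genes of proliferating cells were also counted. Of 22 S phase genes, 17 fell in adherent cells and 14 fell and 2 rose in spheres, with CLSPN lowest in adherent cells at -2.14 and GINS2 in spheres at -1.13, where UHRF1 rose by 0.49. Of 22 G2/M genes, 21 fell in adherent cells, led by KIF2C with -1.62, and 17 fell and 3 rose in spheres. In spheres 63.6% of the S phase and 77.3% of the G2/M genes fell, against 8.33% of the members. Of all genes 30.9% fell and 30.2% rose in spheres, and 27.7% fell and 22.3% rose in adherent cells. UBE2C fell there by 1.07, and MKI67, the Ki-67 antigen, fell by 0.63 in adherent cells and rose by 0.41 in spheres. The part of MYC and of cell division in the changes of the nucleolar genes was not tested.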

How the data were processed

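RNA-seq was performed in 12 DU145 libraries, grouped by the sample labels. The authors made directional, single-end libraries, aligned the reads to GRCh38.p12 and counted them per gene with STAR (version 2.6.1c in the submitters' processing notes, which also name DESeq), and they deposited raw counts without normalization. The gene annotation, strand use and handling of multiply aligned reads are not given in the sources used here. Symbols were found for 26153 of 28747 identifiers. Coordinates, transcript lengths and GC content came from GENCODE (GRCh38). Total counts were 23668070 to 26957777 in adherent shCtrl, 19542016 to 22006759 in adherent shSigma, 16472722 to 19164645 in sphere shCtrl and 18626387 to 19698970 in sphere shSigma libraries, so a gene with a few counts is known only within its counting error.

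From these counts, CPM and log2 fold changes were computed with TMM factors and edgeR 4.0.16 in R 4.3.3, after filterByExpr at a minimum count of 10. CPM used the factors of all 12 libraries and are given by library in the order of the replicate numbers. Each comparison was fitted on its own 6 libraries by the quasi-likelihood test (robust, two-sided), and the interaction on all 12. P-values were adjusted by Benjamini-Hochberg over the whole table of tested genes, and called means an adjusted p under 0.05. The prior count of fitted changes was 0.125. Errors are SD of 3 libraries or SE of a log2 fold change. The methods call the 3 replicates of a condition biological and independent, and p-values measure the spread between these samples. Replicates differed beyond counting noise in all pairs (chi-square per gene 2.73 to 43.9).

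All 50 members may be named, and values by library are given for the lowest and highest called member of each role group in a knockdown comparison or the interaction and for the member of highest mean CPM. NPM1, NOL9 and BOP1 were added after their values were seen. Of other genes, MYC and the lowest and highest called gene of each list are named, and PSMC4 and the markers were added. The check of the targeted gene is not reported here. The members and lists were chosen with earlier results of these data known. Alternatives were DESeq2 1.42.0, its size factors, upper-quartile factors, no filter, a filter of at least 10 counts in each library, a common fit of the 12 libraries, an adjusted p under 0.01, the added condition of an absolute log2 fold change over 1, the replicate block, each library left out and, added after the data were seen, an offset for a lowess trend (span 0.3) on GC content. The procedure was tested on simulated data that included 100 genes changed by 0.6 on the log2 scale. It recovered 49 of them in the adherent and 97 in the sphere knockdown comparison, and 43 for the interaction. Between the cultures it recovered 57 in shCtrl and 65 in shSigma cells. A member not called in adherent cells is therefore less certain to be unchanged than one not called in spheres. Promoter motifs were searched on both strands. Figures were drawn with matplotlib 3.10.9.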

Additional observations from a re-analysis of the deposited data

Results flagged for a closer look

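The knockdown log2 fold change differed between the cultures, by the interaction of hairpin and culture in edgeR (n = 3 libraries per group, adjusted over all genes tested), for 17 members, all in the direction of a higher value in spheres. The differences were 0.93 for UTP20, 0.84 for MRTO4, 0.69 for DKC1, 0.68 for NCL, 0.68 for NOL9 and 0.61 for NIP7. They were 0.46 for POLR1B, 0.46 for WDR12, 0.45 for RRP1B, 0.44 for IMP4, 0.40 for WDR43 and 0.40 for WDR74. The smallest were 0.38 for NOP58, 0.38 for NOP56, 0.37 for NOLC1, 0.35 for BYSL and 0.32 for DDX21. In 16 of these the adherent log2 fold change was under 0, the exception being RRP1B, which rose in both cultures.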

How the results depend on the processing

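Alternatives that moved a count of called members by over 1.5 times were these. In adherent cells the 2 higher members became 1 at an adjusted p under 0.01, 1 with the replicate block and 4 with GC-content offsets. In spheres, 1 fit of all 12 libraries left 1 lower and 7 higher members, and an adjusted p under 0.01 left 6 higher. In shCtrl cells, the 3 members higher in spheres were 5 with upper-quartile factors, 1 with GC-content offsets and 0 at an adjusted p under 0.01. In shSigma cells, an adjusted p under 0.01 left 3 lower and 10 higher members. The interaction was called for 35 members with GC-content offsets and for 8 at an adjusted p under 0.01. Adding the condition of an absolute log2 fold change over 1 left 0 members in every comparison except 1 higher in shSigma cells. With 1 library left out, members called ranged from 16 to 26 lower and 2 to 2 higher in adherent cells, 2 to 6 lower and 9 to 13 higher in spheres, 20 to 27 lower and 1 to 6 higher in shCtrl cells, 4 to 7 lower and 11 to 26 higher in shSigma cells, and 14 to 26 for the interaction. Single members reversed only with GC-content offsets, DDX18 to 0.14 in adherent cells and BOP1 to -0.16 in spheres, and between cultures in shCtrl cells RRP12 to -0.23, WDR74 to -0.33, MYBBP1A to -0.40, UBTF to -0.15 and GRWD1 to -0.23. The cause was not tested.

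Same-numbered libraries had correlations of their deviations from -0.735 to 0.288, over 0.1 in 4 of 18 pairs. For different numbers they were -0.597 to 0.706, over 0.1 in 12 of 36 pairs. These values do not show a pairing by number. They cannot exclude one either, since deviations of adherent libraries also went along with GC content. With the replicate block, adherent cells had 16 lower members and 1 higher, spheres 3 and 12, the cultures of shCtrl cells 19 and 3 and those of shSigma cells 7 and 21, and the interaction 14 higher. Low counts limit NOP2 and PPAN.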
